A study of Arabidopsis thaliana with 4 samples.

Results

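The comparison was between leaves of Arabidopsis thaliana labelled p35S:AtBBD1 (OX) and leaves of the wild type (WT), both after 6 h of 20% polyethylene glycol (PEG), and its members were all genes with at least 1 FPKM in either library. FPKM counts fragments relative to transcript length and to the size of the library, so that levels can be set side by side between genes as well as between libraries. Of 27655 genes in the table, 15736 (56.9%) were kept on this rule, and 11919 were left out, 7024 of which were at 0 in both libraries. The series asks how plants that overexpress or lack AtBBD1, a bifunctional nuclease (DNase and RNase), respond to drought.

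The series holds 4 libraries, 1 for each condition: OX, the mutant atbbd1 (knock-out, KO) and WT after 6 h of PEG, and WT at 0 h without PEG. The sample titles speak of seedlings, and the tissue and age given beside them, as in the methods, are leaves of plants 3 weeks old. All plants were of the Columbia background and grown on soil in long days, and PEG, an osmotic agent that makes soil water harder to take up, was given by watering. OX is a single transgenic line (OX5-4 in the study's methods), atbbd1 carries a T-DNA insertion, and RNA of each genotype came from at least 5 leaves of 5 plants. The label names the p35S promoter, whereas the methods describe a promoter of cassava vein mosaic virus, and both were taken to mean the same plants. No condition has a replicate, so no p-value was computed, and a line effect, a difference between plants and an effect of the transgene cannot be told apart.

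AtBBD1 (AT1G75380) was at 631 FPKM in OX, 36.6 FPKM in atbbd1, 541 FPKM in WT after PEG and 95.5 FPKM in WT at 0 h. The ratio of OX over WT after PEG was 1.17 (95% counting interval 1.14 to 1.19), under the 2-fold used here to call a gene. For the paralogous AtBBD2 (AT1G19660) the levels were 229 FPKM in OX, 140 in atbbd1, 198 in WT after PEG and 68.6 in WT at 0 h, with a ratio of OX over WT of 1.15 (1.11 to 1.19). The gene named in the label thus stood out from WT by about as much as its paralog, which the label does not name. In this library, after PEG, AtBBD1 therefore does not bear the label out. The paper reports raised AtBBD1 in this line by qRT-PCR. OX without PEG was not sequenced, so the line could not be checked in that state here. OX stands below for the library with that label. Library totals, recovered from the steps between low FPKM values, were 15332000 to 17694000 fragments, and 15047 to 15426 genes reached 1 FPKM in each of the 4 libraries. The intervals given with ratios cover counting error only.

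Abscisic acid (ABA) accumulates in leaves that lose water. It binds receptors of the PYR/PYL family, which then hold back the clade A protein phosphatases (PP2Cs), and this releases SnRK2 kinases that activate bZIP factors (ABFs). These bind the ABA-responsive element, with the core ACGTG, in promoters of genes for protective proteins such as dehydrins and other late embryogenesis abundant (LEA) proteins. The phosphatases are themselves induced by ABA and act as a brake. Jasmonic acid (JA) and salicylic acid (SA) govern defence genes, and ABA is known to act on both pathways.

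Most genes were at nearly the same level in OX and WT. The median log2 ratio over the kept genes was 0.02, the middle 50% of genes lay between -0.14 and 0.18, and 75.9% were within 1.25-fold. A ratio of at least 2 was found for 360 genes higher in OX (2.29%) and 165 genes lower in OX (1.05%). Of these, 341 higher genes (2.17%) and 143 lower genes (0.909%) also had a counting interval beyond 1. At least 4-fold were 83 higher and 25 lower genes, and at least 8-fold 29 and 9. The 360 higher genes summed to 9081 FPKM in OX and 2807 FPKM in WT, and the 165 lower genes to 1930 FPKM in OX and 4700 FPKM in WT.

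**Figure D1:**
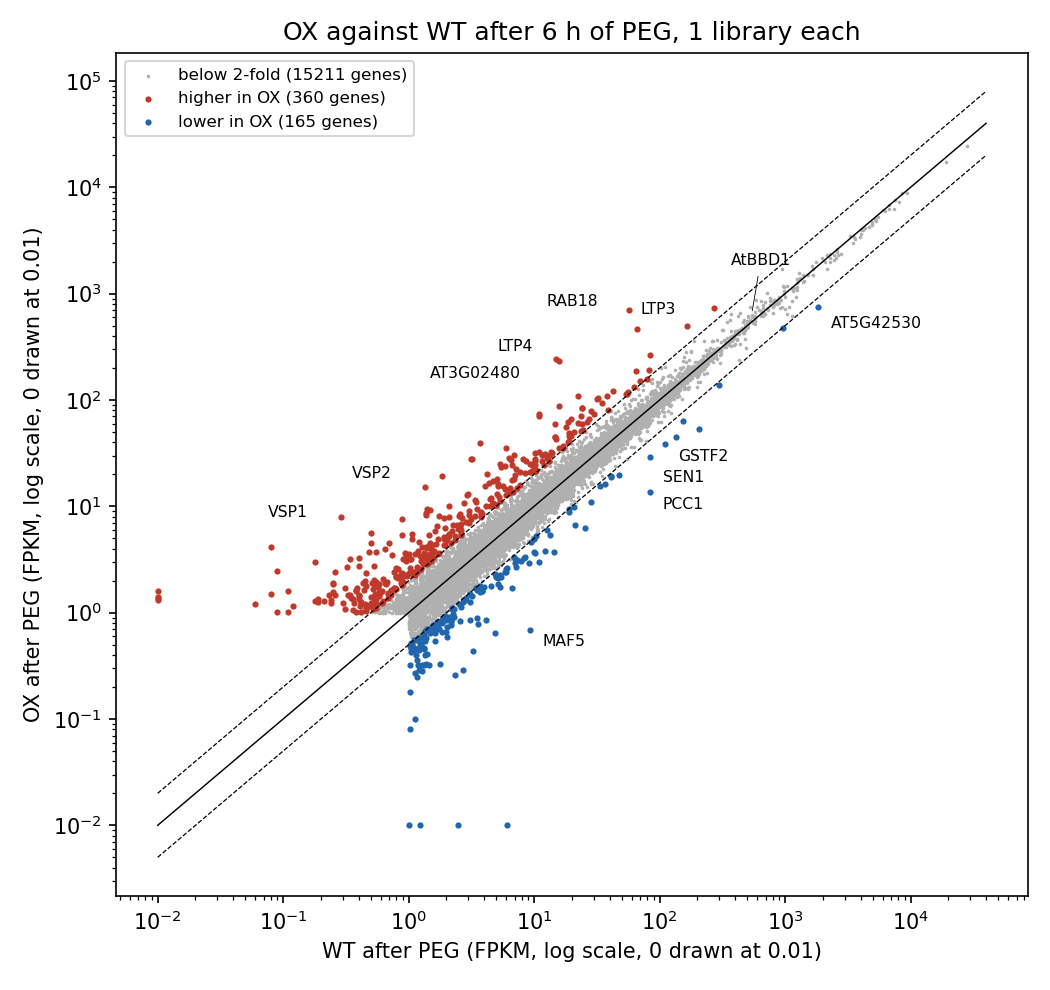
FPKM in OX (vertical axis) against FPKM in WT after PEG (horizontal axis), both on log scales, for the 15736 kept genes, 1 point per gene. The solid line marks equal levels and the dashed lines 2-fold, and the 360 higher genes (red) reach into the range above 100 FPKM, where RAB18, LTP3, LTP4 and AT3G02480 stand far from the line, while most of the 165 lower genes (blue) lie at low levels.

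Higher genes outnumbered lower ones in every range of levels but the highest, where both made up 1.37% of the genes of at least 500 FPKM. Among genes whose higher value was 1 to 2 FPKM, 5.92% were higher in OX and 4.47% lower. Among genes of 50 to 100 FPKM the shares were 2.12% higher and 0.212% lower, and among 100 to 500 FPKM 2.83% and 0.787%. Of 7484 genes of at least 10 FPKM, 128 were higher and 27 lower. The median level of the higher genes was 4.58 FPKM in OX, 0.70 in atbbd1, 1.5 in WT after PEG and 1.15 in WT at 0 h. The lower genes had medians of 0.86 FPKM in OX, 1.45 in atbbd1, 2.27 in WT after PEG and 1.84 in WT at 0 h. Called genes were also shorter, with a median exon length of 1370 bases (higher) and 1320 bases (lower) against 1800 bases for the kept genes. A gene with few reads passes 2-fold more easily, and the part of this in the calls at low level was not tested. At the border of the rule, 172 genes had a higher value of 1 to 1.1 FPKM and 203 were just outside, at 0.9 to 1 FPKM. A ratio of 2 to 2.1 was found for 35 genes higher in OX, against 57 genes at 1.9 to 2, and on the lower side the numbers were 27 and 32.

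**Figure D2:**
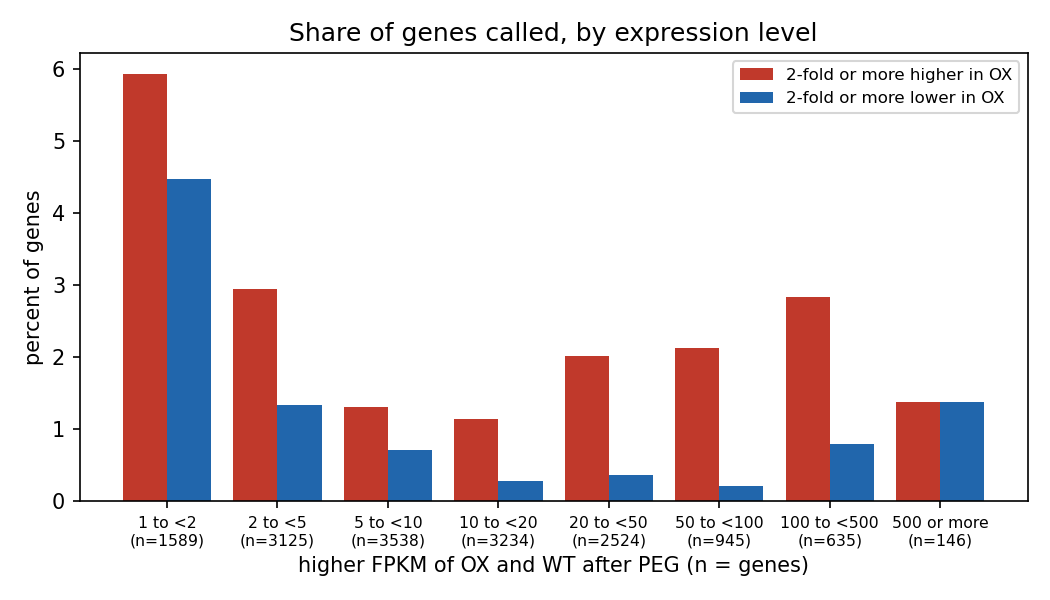
Percent of genes 2-fold or more higher (red) or lower (blue) in OX than in WT after PEG, by the higher of the 2 FPKM values, with the number of genes in each bin. The lower calls drop from 4.47% in the lowest bin to 0.212% at 50 to 100 FPKM, while the higher calls stay at 1.14% or more in every bin.

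Some of the higher genes, not chosen by rank, are shown with 250 bases before the annotated start of the gene. The ABA-responsive element lies in this region in classical ABA-induced promoters such as that of RD29B. The sequences are from TAIR10.1 of RefSeq, written 5′ to 3′ on the strand of the gene, and capitals mark ACGTG on either strand, with overlapping matches run together. AT3G02480 (chromosome 3, plus strand), RD29B (chromosome 5, plus), PUB19 (chromosome 1, plus), LTP4 (chromosome 5, minus) and WSD1 (chromosome 5, plus) were higher in OX, and PCC1 (chromosome 3, minus) had the lowest ratio among genes of at least 10 FPKM.
AT3G02480: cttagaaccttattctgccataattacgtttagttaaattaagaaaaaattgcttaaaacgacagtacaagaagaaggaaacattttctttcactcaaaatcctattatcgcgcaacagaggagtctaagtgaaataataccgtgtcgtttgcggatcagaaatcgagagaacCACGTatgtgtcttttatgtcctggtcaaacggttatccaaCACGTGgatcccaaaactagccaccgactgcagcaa
RD29B: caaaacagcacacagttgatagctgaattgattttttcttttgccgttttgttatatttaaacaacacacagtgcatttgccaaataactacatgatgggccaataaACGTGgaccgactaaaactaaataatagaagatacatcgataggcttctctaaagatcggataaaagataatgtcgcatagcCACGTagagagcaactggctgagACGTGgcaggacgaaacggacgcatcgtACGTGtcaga
PUB19: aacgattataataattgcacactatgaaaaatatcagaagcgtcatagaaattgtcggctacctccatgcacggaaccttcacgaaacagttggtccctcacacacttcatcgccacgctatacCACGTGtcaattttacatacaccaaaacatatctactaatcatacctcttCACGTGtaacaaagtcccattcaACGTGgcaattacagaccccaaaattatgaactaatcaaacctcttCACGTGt
LTP4: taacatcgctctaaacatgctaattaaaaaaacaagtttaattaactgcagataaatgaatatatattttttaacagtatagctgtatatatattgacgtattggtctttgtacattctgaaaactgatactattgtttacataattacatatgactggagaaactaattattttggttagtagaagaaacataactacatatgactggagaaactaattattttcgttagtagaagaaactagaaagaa
WSD1: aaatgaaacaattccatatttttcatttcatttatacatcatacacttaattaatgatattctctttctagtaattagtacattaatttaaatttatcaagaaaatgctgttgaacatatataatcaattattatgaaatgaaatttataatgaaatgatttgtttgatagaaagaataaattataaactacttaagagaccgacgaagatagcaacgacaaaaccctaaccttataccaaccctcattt
PCC1: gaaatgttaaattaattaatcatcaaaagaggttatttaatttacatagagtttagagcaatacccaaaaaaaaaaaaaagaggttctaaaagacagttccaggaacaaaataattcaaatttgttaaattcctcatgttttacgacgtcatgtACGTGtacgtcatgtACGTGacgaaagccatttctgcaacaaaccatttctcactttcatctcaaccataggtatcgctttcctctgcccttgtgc
These windows hold 2 matches in AT3G02480, 4 in RD29B, 4 in PUB19, none in LTP4, none in WSD1 and 2 in PCC1. Several genes not shown here had higher ratios than PUB19. Of these, RAB18 had 3 matches, AT1G05340 and AT5G39520 had 1 each, and VSP2, HIPP22 and AT4G33150 had none. In AT3G02480 the matches begin 77 and 36 bases before the start, and in RD29B 143, 61, 38 and 10 bases before it.

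ACGTG was searched on both strands of the same 250-base window of every kept gene with an annotated start, overlapping matches being counted once. It was present in 158 of 356 higher genes (44.4%) and 45 of 159 lower genes (28.3%), against 3659 of all 15656 kept genes (23.4%). Among genes of at least 10 FPKM it was in 50.8% of the 128 higher genes, 40.7% of the 27 lower genes (11 of them) and 25.1% of all, so that at these levels the lower genes lay nearer to the higher ones. With the size of the ratio the share of higher genes with a match went up, from 38.8% of the genes 2-fold to below 4-fold higher to 62.7% of the 83 genes at least 4-fold higher. At least 2 matches were in 18.8% of the higher genes, 6.29% of the lower genes and 5.56% of all. The G-box CACGTG, which contains ACGTG on both strands, was in 19.1%, 5.66% and 7.67% of the same sets. GCCGAC, the core of the dehydration-responsive element bound by CBF and DREB2 factors, was in 4.49%, 1.26% and 3.05%, and the evening element AAAATATCT in 2.81%, 2.52% and 2.68%. A match is a description of the letters and not a bound site.

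Among genes of at least 10 FPKM, LTP4 (AT5G59310), a secreted lipid transfer protein, had the highest ratio. It was at 243 FPKM in OX, 0.14 in atbbd1, 15 in WT after PEG and 0 in WT at 0 h, and the ratio of OX over WT was 16.2 (14.0 to 18.8). Its neighbour LTP3 was at 468, 0.61, 65.6 and 0.25 FPKM in these libraries and was 7.13-fold higher in OX. OX stood far above the other 3 libraries for both, and WT after PEG far above the remaining ones. The copies are near-identical and may share reads.

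A LEA gene, AT3G02480, and a dehydrin gene, RAB18, had the next highest ratios after LTP4. LEA4-5 and RD29B came only after several genes of other classes, given further below. AT3G02480, a LEA family protein, was at 233 FPKM in OX, 15.7 in WT after PEG and 0 in the other libraries, 14.8-fold higher in OX than in WT (12.5 to 17.8). RAB18, an ABA-induced dehydrin, was at 707 FPKM in OX, 3.84 in atbbd1, 57.5 in WT after PEG and 3.17 in WT at 0 h, and was 12.3-fold higher (11.5 to 13.1). LEA4-5 was at 73.4 FPKM in OX and 11 in WT. RD29B, the textbook target of ABFs, was at 87.7 FPKM in OX, 0.14 in atbbd1, 15.8 in WT after PEG and 0.09 in WT at 0 h, 5.57-fold higher (5.08 to 6.11).

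The other genes with the highest ratios came from various classes. VSP2, a JA-induced storage protein with phosphatase activity, was at 15.4 FPKM in OX and 1.34 FPKM in WT. AT5G39520, of unknown function (DUF1997), was at 39.4 and 3.71 FPKM in OX and WT. HIPP22, of the heavy metal-associated isoprenylated proteins, was at 19.2 FPKM in OX, 1.85 in WT after PEG and 0 in the other libraries. AT4G33150, the bifunctional enzyme of lysine breakdown, was at 27.6 FPKM in OX, 1.17 in atbbd1, 3.18 in WT after PEG and 1.56 in WT at 0 h. AT2G41190, a putative amino acid transporter, was 4.95-fold higher in OX. AT1G05340 (a short cysteine-rich protein), AT2G05540 (glycine-rich), AT5G15500 (ankyrin repeats) and AT4G18422 (uncharacterized) were 8.97-, 6.41-, 5.90- and 4.89-fold higher.

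In absolute terms the gains were led by genes that WT already expressed strongly. COR15A, which protects chloroplast membranes in the cold, was at 1698 FPKM in OX, 245 in atbbd1, 939 in WT after PEG and 30.1 in WT at 0 h, a gain of 758 FPKM over WT after PEG but a ratio of only 1.81. RAB18 gained 650 FPKM, RD22 468, LTP3 402 and RD20, a caleosin of lipid droplets, 330. RD22 was at 738 FPKM in OX and 270 in WT, and RD20 at 495 and 164 FPKM. AT1G09310, PSBR, MT2A, ERD14 and AT4G23670 gained 269 to 305 FPKM at ratios of 1.03 to 1.73.

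**Figure D3:**
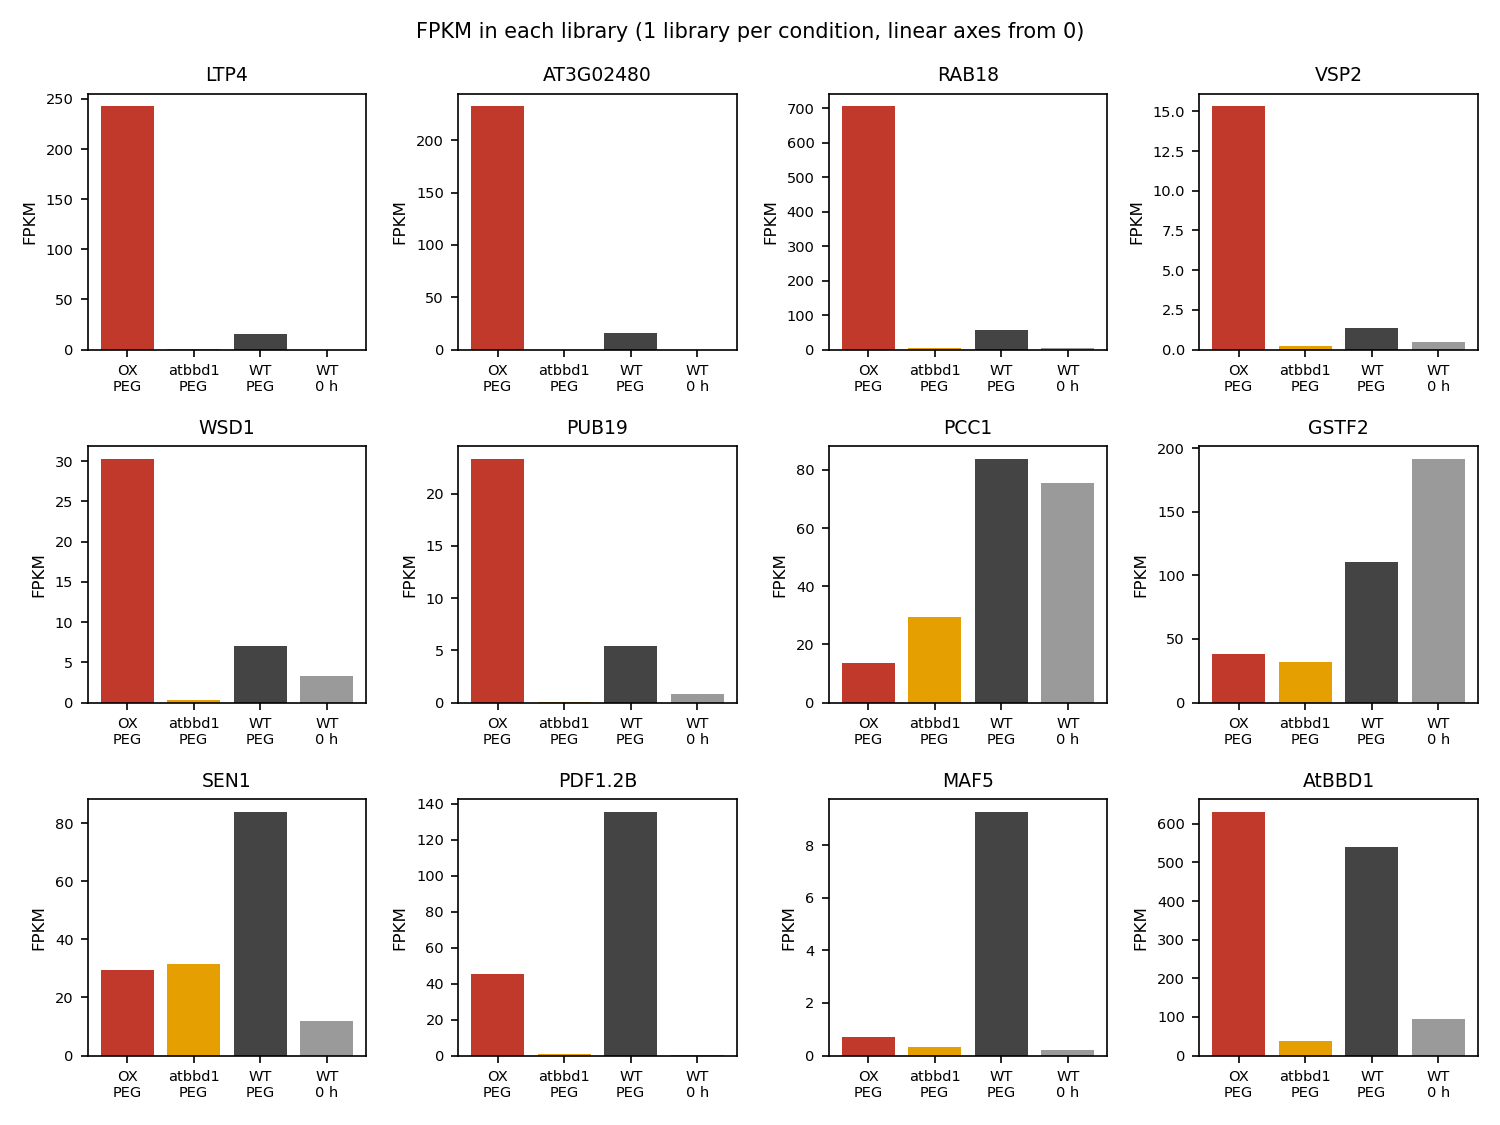
FPKM of 12 genes in the 4 libraries, 1 bar per library, each panel with its own linear axis from 0. LTP4, AT3G02480, RAB18, VSP2, WSD1 and PUB19 have their tallest bar in OX, PCC1, GSTF2, SEN1, PDF1.2B and MAF5 (chosen after its values were seen) are lower in OX than in WT after PEG, and AtBBD1 is at 631 FPKM in OX and 541 FPKM in WT after PEG.

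Within the ABA pathway, 5 of 7 phosphatases and 4 of 9 bZIPs and their partners were called higher in OX, and no receptor was called. For this and every list count below, the shares over all kept genes were 2.29% higher and 1.05% lower. Of 7 clade A PP2Cs kept, 5 were higher, none lower, and all 7 were above WT, with a median log2 ratio of 1.33 against 0.02 for all kept genes. HAI1 was at 62.7 FPKM in OX, 0.14 in atbbd1, 18.5 in WT after PEG and 0.66 in WT at 0 h. HAI2 was at 32.5 and 11 FPKM in OX and WT, ABI2 at 27.7 and 10.1, HAB1 at 31.0 and 12.3, and ABI1 at 133 and 62.5. PP2CA, at 154 FPKM in OX and 78.1 in WT, stopped just short of 2-fold. HAB2 was at 32.4 FPKM in OX and 19.9 in WT. Outside clade A, 46 genes whose product is named a PP2C were kept, with a median log2 ratio of -0.0042. Of these, 1 was higher (2.17%, against 2.29% of all kept genes) and none lower. It was AT2G30020, at 3.21 FPKM in OX and 1.02 in WT, chosen after its values were seen.

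Of the 7 receptors kept, none was called, and their median was -0.07. PYR1 was at 29.8 FPKM in OX and 23.1 in WT, PYL4 at 1.89 and 3.53 FPKM, PYL8 at 34.4 and 38.5 FPKM and PYL9 at 12 and 10.1 FPKM. Of 9 SnRK2 kinases, SnRK2.7 alone was called, at 4.95 FPKM in OX and 1.06 in WT. SnRK2.6 (OST1), the kinase of stomatal closure, was at 9.17 FPKM in OX and 6.53 in WT, and SnRK2.2 and SnRK2.3 had log2 ratios of 0.11 and -0.08, against -0.33 for SnRK2.8 and -0.59 for SnRK2.5.

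Of the 9 ABA-responsive bZIPs and ABI5-binding proteins (AFPs), 4 were higher and none lower, with a median of 0.82. AFP1, which promotes breakdown of ABI5, was at 55.7 FPKM in OX, 0.15 in atbbd1, 18 in WT after PEG and 1.43 in WT at 0 h. AFP3 was at 62.8 FPKM in OX and 26.2 in WT, ABF2 at 31.4 and 13.8, and GBF3, a G-box factor, at 13.6 and 6.77. ABF3 was at 57.1 FPKM in OX and 32.3 in WT, while ABF1 was at 44.9 FPKM in both.

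None of the 8 genes of ABA synthesis and release was called. NCED3, the dioxygenase of the rate-limiting step, was at 18.5 FPKM in OX, 2.69 in atbbd1, 9.38 in WT after PEG and 0.93 in WT at 0 h, a log2 ratio of 0.98. BGLU18, which frees ABA from its glucose ester, was at 48.8 FPKM in OX and 66.6 in WT, BGLU33 at 0.89 and 1.03 FPKM, and AAO3, which oxidises abscisic aldehyde, at 7.14 and 4.23 FPKM. Of 6 genes of ABA catabolism, conjugation and transport, CYP707A3, an ABA hydroxylase, was at 2.19 FPKM in OX and 0.87 in WT, and the exporter ABCG25 at 1.89 and 0.87 FPKM. Both were called at levels near the filter, which they passed only through OX. The median of 0.47 turned to -0.16 with a filter of 5 FPKM. UGT71C5, which conjugates ABA to glucose, was at 20.5 FPKM in OX and 24 in WT, and the importer NPF4.6 at 7.71 and 8.23 FPKM.

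Genes for protective proteins were called in unequal shares. Of 8 LEA proteins outside the dehydrins, 6 were higher and none lower, with a median log2 ratio of 1.87. Besides those above, LEA7 was at 59.1 FPKM in OX, 14.8 in WT after PEG and 0 in the other libraries. DI21 was at 14.9 FPKM in OX and 6.37 in WT, EM6 and LEA18 were called at under 2 FPKM, and LEA14, at 356 FPKM in OX and 189 in WT, and SAG21, at 32.5 and 24.8 FPKM, were not. With a pseudocount of 1 FPKM the median was 1.01. By product name, 29 LEA genes were kept, 10 of them higher (34.5%) and 1 lower, against 2.29% higher and 1.05% lower over all kept genes. Among the higher ones, AT1G65690, LEA18, AT2G42560, AT3G15670 and AT3G17520 were under 1 FPKM in WT and passed the filter only through OX. The lower one, M10, passed it only through WT.

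The dehydrins were more even. Of 6 kept, RAB18 alone was called, and COR47, ERD10, ERD14 and LTI30 had log2 ratios of 0.50 to 0.67. HIRD11 was at 1697 FPKM in OX and 1674 in WT. Of 12 COR, KIN and RD29 genes, all were above WT, but only RD29B and KIN1 (266 FPKM in OX, 83.3 in WT) by 2-fold, with a median of 0.35. RD29A, whose promoter is known for both ABA- and cold-responsive elements, was at 616 FPKM in OX and 422 in WT, well under the 5.57-fold of RD29B. KIN2, a close copy of KIN1, was at 2362 FPKM in OX and 2282 in WT, and AT4G33980 at 41.4 and 37.5 FPKM. KIN1 and KIN2 may share reads. None of 8 CBF and DREB factors was called, their log2 ratios lying between -0.52 for CBF2 and 0.70 for CBF3, with CBF1 at -0.50 and RAP2.1 at 0.56.

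Of 12 RD and ERD genes, 3 were higher, against 2.29% of all kept genes. They were RD20, RD22 and ERD9. ERD9, a glutathione transferase, was at 26.6 FPKM in OX, 2.79 in atbbd1, 11.5 in WT after PEG and 257 in WT at 0 h. ERD6, a sugar transporter, was at 16.2 FPKM in OX and 29.6 in WT, and ERD15 at 457 and 481 FPKM.

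Transcription factors of the drought response moved in part. Of 10 stress NAC factors, 5 were higher and 1 lower, against 2.29% higher and 1.05% lower over all kept genes. Their median was 0.72. NAC019 was at 80.9 FPKM in OX, 2.42 in atbbd1, 38.6 in WT after PEG and 2.25 in WT at 0 h. NAC072 (RD26) was at 45.7 and 18.9 FPKM in OX and WT, and the leaf senescence regulators ORE1 and NAP at 25.2 and 9.25 FPKM and at 24.3 and 9.55 FPKM. NAC047 was called at 2.32 FPKM in OX and 0.87 in WT, and NAC081 was at 16.9 and 19.4 FPKM. With a filter of 5 FPKM the median was 0.37. NAC059 was the 1 lower gene of the list, at 3.00 FPKM in OX, 2.01 in atbbd1, 10.9 in WT after PEG and 2.69 in WT at 0 h. By product name, 40 NAC genes were kept, 5 of them higher (12.5%) and 3 lower (7.5%), with a median of 0.13. The 5 higher ones were those of the list. NAC047 passed the filter only through OX, and NAC2 and NAC088, the lower ones outside the list, only through WT.

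Of 8 HD-Zip class I factors, HB7 and HB12 were higher, against 2.29% of all kept genes. Both are known as ABA-induced. HB7 was at 105 FPKM in OX, 2.52 in atbbd1, 32.2 in WT after PEG and 17.9 in WT at 0 h, and HB12 at 93.2 FPKM in OX and 34.9 in WT. HB23 and HB13 had log2 ratios of -0.48 and -0.30. Of 10 stress MYB factors, MYB74 and MYB2 were called, at 1.33 and 1.24 FPKM in OX against 0.24 and 0.37 FPKM in WT. Both passed the filter only through OX. MYB70 and MYB73 had log2 ratios of -0.52 and -0.22. The median was -0.07, and 0.27 with a filter of 10 FPKM. MYB96, an activator of wax genes and of LTP3, was at 18.1 FPKM in OX, 4.51 in atbbd1, 9.63 in WT after PEG and 5.10 in WT at 0 h, a log2 ratio of 0.91.

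Genes of the cuticular wax, the lipid layer that limits water loss from the leaf surface, were mostly above WT. Of 17 kept, 5 were called higher, none lower, and 12 were not called, with a median of 0.69 and 16 of the 17 above WT. The share called higher over all kept genes was 2.29%. LACS1, at 8.29 FPKM in OX and 7.13 in WT, was nearest to equal. KCS2, which elongates fatty acids, was at 28.6 FPKM in OX, 0.46 in atbbd1, 6.31 in WT after PEG and 11.8 in WT at 0 h. WSD1, which makes wax esters, was at 30.3, 0.31, 6.97 and 3.32 FPKM in these libraries. CER1 and CER3, which together make alkanes, were at 66.4 and 32.8 FPKM in OX against 19.7 and 13.6 FPKM in WT. CER6 was at 159 FPKM in OX and 78.8 in WT. DEWAX, a repressor of wax genes in the dark, was the 1 gene below WT, at 85.0 FPKM in OX and 106 in WT. Of 7 lipid transfer proteins, LTP4 and LTP3 were higher and AZI1, a protein of systemic immunity, was lower (1.5 FPKM in OX, 3.09 in WT). LTP5 was at 190.2 FPKM in OX and 205 in WT.

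Genes tied to compatible solutes, which hold water in the cell, were split. Of 6 genes of galactinol and raffinose metabolism, a list not confined to synthesis, 2 were higher and none lower, with a median of 0.74. They were GolS2 (37.1 FPKM in OX, 17.1 in WT) and SIP2 (20.9 and 9.34 FPKM). GolS3, the cold-induced galactinol synthase, was at 24.3 FPKM in OX and 29.0 in WT, and DIN10 at 29.0 and 39.2 FPKM. In proline metabolism, P5CS1, the enzyme that limits proline synthesis, was at 201 FPKM in OX, 38.2 in atbbd1, 102 in WT after PEG and 48.9 in WT at 0 h, a log2 ratio of 0.97. ProT3, a proline transporter at 1.76 FPKM in OX and 0.57 in WT, was the 1 gene of 7 called and passed the filter only through OX. The transporters ProT1 and ProT2 had log2 ratios of -0.29 and -0.28.

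PUB19, a U-box ubiquitin ligase that dampens ABA responses, was the 1 called gene of the 9 kept from the list of drought-related ubiquitin ligases. It was at 23.4 FPKM in OX, 0.02 in atbbd1, 5.41 in WT after PEG and 0.81 in WT at 0 h, 4.32-fold higher (3.71 to 5.04). XERICO was at 66.7 FPKM in OX and 45.2 in WT, PUB13 at 14.6 and 16.9 FPKM and RHA2A at 5.16 and 5.6 FPKM. Outside the list, the RING genes AIRP1 (2.26 FPKM in OX, 1.09 in WT) and AIRP2 (61.2 and 22.3 FPKM) were also called higher. They were chosen after their values were seen. By product name, 280 RING genes were kept, 5 of them higher (1.79%) and 4 lower (1.43%). Of 10 genes of senescence and chlorophyll breakdown, SAG29, NYE2 and PAO were higher. PAO, which opens the chlorophyll ring, was at 119.9 FPKM in OX and 56.2 in WT, NYE1 was at 26.1 and 13.3 FPKM, and WRKY53 and SAG13 had log2 ratios of -0.38 and -0.17. Of 6 heat shock genes kept, the factors HSFA6A and HSFA6B were called, both under 4 FPKM in OX. HSFA6A, at 0.66 FPKM in WT, passed the filter only through OX. HSFA3 and HSP90.1 had log2 ratios of -0.25 and 0.01. By product name, 97 heat shock genes were kept, 2 of them higher (2.06%) and 1 lower (1.03%). The shares over all kept genes were 2.29% and 1.05%. The lower one, BIP3, passed the filter only through WT. PAP1, the anthocyanin regulator, was at 5.30 FPKM in OX and 2.06 in WT, while CHS, the first enzyme of the flavonoid pathway, was at 5.04 and 4.52 FPKM, and CHI and F3H had log2 ratios of 0.36 and 0.27.

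**Figure D4:**
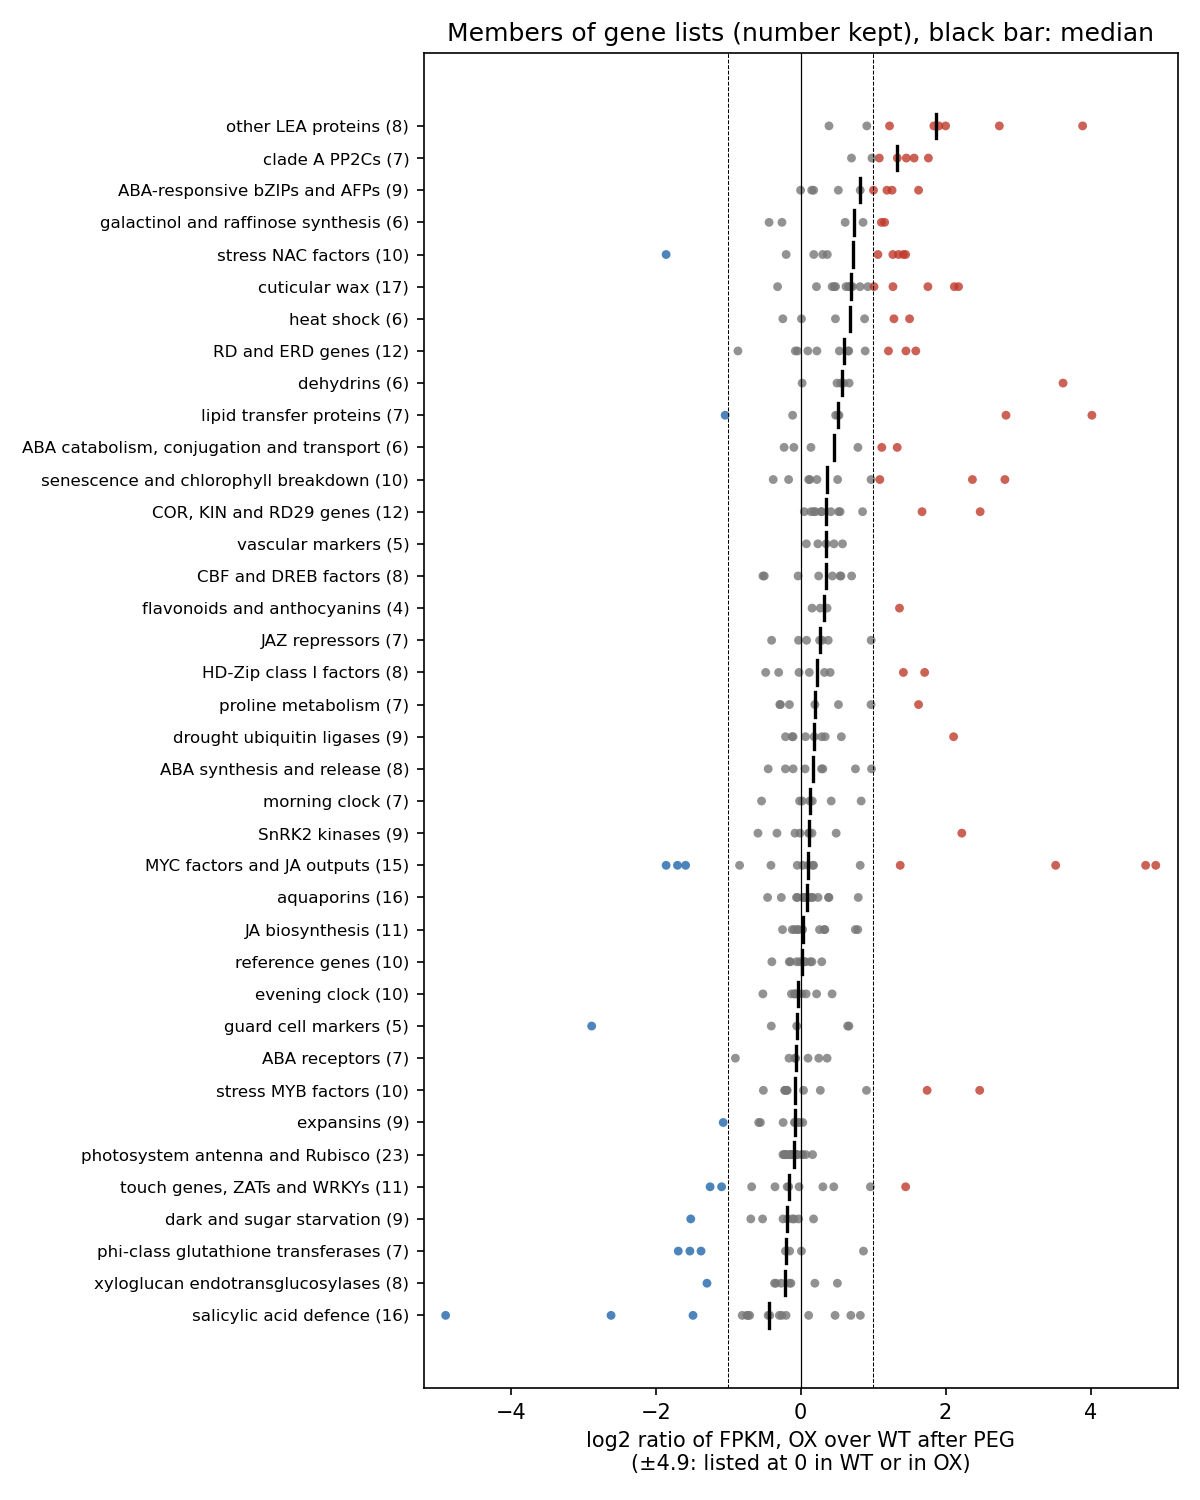
Log2 ratio of FPKM of OX over WT after PEG for the kept members of each gene list with at least 4 of them, 1 point per gene (a gene at 0 in OX or WT at the edge), with the list's median as a black bar, the number kept in brackets and 2-fold at the dashed lines (red, higher in OX; blue, lower in OX). At this filter and with no pseudocount, LEA proteins (1.87) and clade A PP2Cs (1.33) have the highest medians and SA defence (-0.44) the lowest, an order that changes with the filter and the pseudocount, and JA outputs have points far out on both sides.

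Genes that respond to JA went both ways. None of 11 JA synthesis genes and none of 7 JAZ repressors was called, with medians of 0.03 and 0.26. AOC1 and ACX1, of JA synthesis, had log2 ratios of 0.79 and 0.75, and OPCL1 and AOC4 of -0.25 and -0.12. JAZ9 was at 32.7 FPKM in OX and 16.7 in WT, and JAZ11, JAZ3 and JAZ6 had log2 ratios of 0.38, -0.03 and -0.40. Of 15 MYC factors and JA outputs, 4 were higher and 3 lower. Among these, VSP1 and THI2.1 passed the filter only through OX, and ORA59 and TAT3 only through WT. VSP1, which lies next to VSP2, was at 7.86 FPKM in OX, 0.18 in atbbd1, 0.29 in WT after PEG and 0.05 in WT at 0 h, 27.1-fold higher in OX than in WT (12.4 to 76.0). JR1, a lectin, was at 6.84 FPKM in OX and 2.64 in WT. THI2.1, a thionin, was at 1.41 FPKM in OX and 0 in the other libraries, at least 7.11-fold higher than WT with a floor of 3 reads in the WT library.

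The lower members were PDF1.2B, ORA59 and TAT3. PDF1.2B, a defensin, was at 45.1 FPKM in OX, 0.77 in atbbd1, 136 in WT after PEG and 0.21 in WT at 0 h, 3.01-fold lower in OX than in WT (2.71 to 3.34). PDF1.2A was at 238 FPKM in OX and 426 in WT, whereas PDF1.2C was at 133 and 118 FPKM. The defensin copies are near-identical and may share reads. ORA59, the factor that joins JA and ethylene signals, was at 0.36 FPKM in OX and 1.17 in WT, and TAT3 at 0.85 and 3.08 FPKM. MYC2, the main JA factor, was at 8.04 FPKM in OX, 0 in atbbd1, 7.11 in WT after PEG and 3.51 in WT at 0 h.

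Genes of SA defence were mostly below WT. Of 16 kept, none was higher, 3 were lower and 12 were below WT, with a median log2 ratio of -0.44. The share called lower over all kept genes was 1.05%. PCC1 was at 13.7 FPKM in OX, 29.3 in atbbd1, 83.9 in WT after PEG and 75.4 in WT at 0 h, 6.14-fold lower in OX than in WT (5.25 to 7.21). WRKY54, a negative regulator of senescence, was at 3.63 FPKM in OX, 6.90 in atbbd1, 10.2 in WT after PEG and 2.1 in WT at 0 h. PR1, the marker of the SA response, was at 0 FPKM in OX, 0 in atbbd1, 2.47 in WT after PEG and 3.18 in WT at 0 h, at least 13.1-fold lower in OX than in WT with the floor of 3 reads in the OX library. PR2 was at 5.36 FPKM in OX and 8.87 in WT, and PR5 at 8.67 and 14.5 FPKM. ICS1, EDS5 and PBS3, of SA synthesis and export, had log2 ratios of 0.47, 0.82 and 0.69, above WT.

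Of 7 phi-class glutathione transferases, which detoxify with glutathione, 3 were lower and none higher, against 1.05% lower over all kept genes. GSTF2 was at 38.4 FPKM in OX, 31.6 in atbbd1, 111 in WT after PEG and 192 in WT at 0 h. The adjacent GSTF6 and GSTF7 were at 11 and 3.82 FPKM in OX against 28.6 and 12.3 FPKM in WT. GSTF9 was at 583 FPKM in OX and 579 in WT, and GSTF11 at 5.45 and 2.99 FPKM.

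The remaining genes with the lowest ratios included SEN1, a dark- and senescence-induced gene, at 29.3 FPKM in OX, 31.4 in atbbd1, 84.0 in WT after PEG and 11.8 in WT at 0 h. It was the 1 called of 9 genes of dark and sugar starvation, of which ASN1, TPS11 and TPS10 had log2 ratios of -0.69, -0.03 and 0.18. AT3G22235, next to PCC1, was at 53.0, 86.5, 204.5 and 215 FPKM in these libraries. AT5G55450, of the lipid transfer superfamily, was at 6.26 FPKM in OX and 25.5 in WT, and PCR1, a cadmium resistance protein, at 3.74 and 14.3 FPKM. ACD6, an ankyrin protein of SA defence, was at 19.8 FPKM in OX and 47.7 in WT, 2.41-fold lower. AT5G03350, a lectin, and AT1G15125, a methyltransferase, were 3.13- and 2.46-fold lower.

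The largest losses in FPKM were in genes of photosynthesis, at ratios near 1, and in 3 genes of little known function. LHCB1.3 fell short of WT by 3635 FPKM, with 24370 FPKM in OX and 28005 in WT, LHCB1.5 by 1729 FPKM and LHCB3 by 1058 FPKM. LHCA4, PSBP-1, PSBX and PSAG lost 473 to 696 FPKM at log2 ratios of -0.21 to -0.13. AT5G42530 was at 752 FPKM in OX, 948 in atbbd1, 1847 in WT after PEG and 2321 in WT at 0 h, 2.46-fold lower in OX than in WT (2.39 to 2.52). AT2G25510 was at 471 FPKM in OX and 967 in WT, and ECS1 at 622 and 1138 FPKM. Of 23 antenna, photosystem and Rubisco genes, none was called and 19 were below WT, with a median of -0.10, the ends being LHCB2.2 and LHCB4.2 (-0.24 and -0.23) and RBCS3B and RBCS2B (0.07 and 0.16). The LHCB and RBCS copies may share reads. Of 307 kept genes for ribosomal proteins, none was called and 244 were below WT, with a median of -0.15. Scaling the libraries by the median ratio moved every log2 ratio by 0.02.

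Among cell wall genes, 1 of 9 expansins and 1 of 8 xyloglucan endotransglucosylases were lower and none higher, against 1.05% lower over all kept genes. By product name 3 of 13 such endotransglucosylases were lower (23.1%), namely XTH16, XTH25 (0.1 FPKM in OX, 1.13 in WT) and TCH4. XTH16, XTH25 and the expansin EXPA15 were under 1 FPKM in OX and passed the filter only through WT. EXPA15 was at 0.91 FPKM in OX and 1.91 in WT, and XTH16 at 0.51 and 1.25 FPKM, both with few reads. EXPA1 was at 133 FPKM in OX and 198 in WT, EXPA10 and EXPA4 had log2 ratios of -0.01 and 0.03, and XTH24, XTH7 and XTH31 of -0.36, 0.20 and 0.51. Of 11 touch genes, ZATs and WRKYs, 1 was higher and 2 were lower. TCH3 and TCH4, induced by touch, were at 8.92 and 2.27 FPKM in OX against 19.0 and 5.40 FPKM in WT, while ZAT10, a zinc finger repressor, was at 8.24 FPKM in OX and 3.02 in WT and ZAT6 at 13.4 and 6.87 FPKM. None of 16 aquaporins, the water channels, was called. Their log2 ratios ran from -0.46 for PIP1;5 and -0.27 for PIP2;7 to 0.39 for PIP2;3 and 0.79 for PIP2;8, the last at 1.11 FPKM in OX and 0.64 in WT.

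Both libraries were taken after 6 h, and no kept clock gene differed by 2-fold between them. None of 7 morning and 10 evening genes was called, with medians of 0.13 and -0.04. CCA1 was at 6.33 FPKM in OX, 1.95 in atbbd1, 3.55 in WT after PEG and 157 in WT at 0 h. Its log2 ratio of OX over WT after PEG, 0.83, was the highest of the morning genes. TOC1 was at 55.5, 64.8, 52.7 and 1.77 FPKM in the same libraries. Of the morning genes, RVE4, PRR9 and LNK1 had log2 ratios of -0.54, -0.02 and 0.42, and of the evening genes CHE, GI, FKF1 and ELF4 of -0.52, -0.13, 0.22 and 0.43. The 10 reference genes had a median of 0.02, with ACT2 at 90.5 FPKM in OX and 119 in WT, UBQ10 at 618 and 505 FPKM, UBC21 at 32.3 and 29.1 FPKM and AT5G60390 at 161 and 179.8 FPKM.

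Markers of cell types that a leaf sample could hold were measured as well, and their part in the results was not tested. The 12 guard cell markers summed to 11.9 FPKM in OX and 13.5 in WT, with 5 kept. AT1G22690 was the 1 called, at 0.44 FPKM in OX, 6.93 in atbbd1, 3.25 in WT after PEG and 10.4 in WT at 0 h, while FAMA, MPK12 and GORK had log2 ratios of -0.41, 0.65 and 0.67. The 5 trichome markers summed to 1.84 FPKM in OX and 2.1 in WT, the 5 root markers to 7.28 and 8.83 FPKM, the 8 flower and meristem markers to 1.37 and 1.4 FPKM and the 10 seed markers to 0.18 and 0.08 FPKM. Of the seed markers, 9 were at 0 in both, as were CASP1 of the root endodermis, GL1 of trichomes and the meristem genes AP1, LFY and STM. MYB106, the 1 trichome marker kept, was at 1.43 FPKM in OX and 1.1 in WT, whereas GL2, below the filter, was at 0.14 and 0.30 FPKM. The trichome median, 0.38 from MYB106 alone, was -1.10 without a filter. The root genes SHR and SCR had log2 ratios of -0.27 and -0.25. All 5 kept vascular markers were above WT, with a median of 0.35 and none called, and the list summed to 63.9 FPKM in OX and 51.1 in WT. SUC2, the phloem sucrose loader, was at 23.5 FPKM in OX, 35.1 in atbbd1, 17.1 in WT after PEG and 44.9 in WT at 0 h, 1.38-fold higher in OX than in WT after PEG (1.23 to 1.53). APL, a phloem regulator, was 1.49-fold higher (1.11 to 2), PP2-A1 was at 31.3 FPKM in OX and 26.5 in WT, and SEOB at 2.45 and 2.32 FPKM. In bulk leaf RNA, fewer cells of a type and less RNA per cell cannot be told apart.

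Called genes lay on all 5 chromosomes, with 1.95% to 2.47% of the kept genes of a chromosome higher and 0.875% to 1.16% lower. A gene next to the called gene was called in the same direction for 22 of 356 higher genes (6.18%) and 16 of 159 lower genes (10.1%), whereas 2.82% of the 15657 kept nuclear genes had a higher gene beside them and 1.2% a lower one. The 11 higher pairs included LTP4 with LTP3 and VSP2 with VSP1, and the 8 lower pairs GSTF7 with GSTF6, PCC1 with AT3G22235 and AT5G55450 with AT5G55460. These pairs were chosen for mention after the calls were seen, and several are copies of each other. Of 61 kept chloroplast genes 3 were higher and 2 lower, and of 18 kept mitochondrial genes 1 was higher and 4 lower, in libraries made from mRNA. The shares over all kept genes were 2.29% higher and 1.05% lower.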

How the data were processed

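Leaf mRNA was sequenced in 4 libraries, grouped by the submitters' labels. The deposited table holds FPKM, which the authors computed with Cufflinks after mapping to TAIR10. The mapper is TopHat2 in the submitters' processing notes and HISAT2 in the paper, which calls the unit RPKM. How strand was handled is not given in these sources, so overlapping and antisense genes may share reads.

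Of 27655 gene IDs, 27445 were matched to the RefSeq annotation of TAIR10.1 for names, exon lengths and promoters, and the other 210 are organelle genes. Mapped fragments per library were estimated as the total at which FPKM × exon length gave whole reads (within 0.15, up to 40 reads) for genes with 1 transcript of 200 to 2000 bases. At these totals 98.8% to 99.3% of low values came out whole, against 24.9% to 25.7% at other totals. Ratio intervals are exact (Clopper-Pearson) 95% binomial intervals of the reads. Reads of genes with several transcripts used the union of exons and are approximate. Against a value of 0, a floor of 3 reads in that library was used.

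Genes of at least 1 FPKM in OX or WT were kept and called at a ratio of at least 2, without a pseudocount. Named genes were AtBBD1 and AtBBD2, the 15 highest and 15 lowest ratios among genes of at least 10 FPKM, the 10 largest gains and losses in FPKM, and, for each list, its 2 highest and 2 lowest ratios, with further members where a list is accounted for. The comparison, the members and the lists were chosen with earlier results of these data known. Alternatives were other filters, pseudocounts, thresholds and scalings. Python 3.11.15, numpy 2.4.6, pandas 2.3.3, scipy 1.17.1 and matplotlib 3.10.9 were used, and the steps were tested on simulated data.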

Additional observations from a re-analysis of the deposited data

How the results depend on the processing

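The AtBBD1 ratio stayed between 1.15 and 1.17 under every pseudocount and scaling tried. The counts of called genes moved with the filter and the threshold. Without a filter 849 genes were higher and 698 lower in OX, with a filter of 5 FPKM 174 and 52, and with a filter of 10 FPKM 128 and 27. A pseudocount of 1 FPKM gave 208 higher and 52 lower genes, and a 4-fold threshold 83 and 25. The counts stayed within 1.5 times under a pseudocount of 0.1 FPKM, both scalings and the limit to counting intervals beyond 1, and higher genes outnumbered lower ones in every case. No log2 ratio of the 49 genes named by rank (or AtBBD1 and AtBBD2) changed sign under the pseudocounts and scalings. List medians kept their sign under the pseudocounts and scalings, but 5 of 40 changed sign without a filter, 2 of 37 with a filter of 5 FPKM (ABA catabolism and ABA receptors) and 4 of 35 with a filter of 10 FPKM. Beyond the median counting interval of their members moved 2 of 40 medians without a filter, 6 of 37 at 5 FPKM and 6 of 35 at 10 FPKM. The stress MYB median of -0.07 was 0.15 without a filter and 0.27 at 10 FPKM, and the stress NAC median of 0.72 was 0.37 at 5 FPKM. The order of lists changed too. With a pseudocount of 1 FPKM LEA proteins were at 1.01 and clade A PP2Cs at 1.27, with filters of 5 and 10 FPKM lipid transfer proteins led at 1.67 against 1.61 for LEA proteins, and at 10 FPKM phi-class glutathione transferases were lowest at -0.79, SA defence being at -0.60.

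Near 1 FPKM few reads stand behind a value, so that single calls there are weak. A gene under 1 FPKM in OX or in WT was kept only through the other library, so that the filter fixed its direction. No paired analysis was possible because each condition has 1 library.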

Other observations

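The genes in this paragraph were chosen after their values were seen. PDF1.3, the neighbour and copy of PDF1.2B, was at 63.9 FPKM in OX, 0.38 in atbbd1, 153 in WT after PEG and 0 in WT at 0 h. MAF5, a MADS-box gene related to the flowering repressor FLC, was at 0.69 FPKM in OX, 0.34 in atbbd1, 9.27 in WT after PEG and 0.21 in WT at 0 h, so that WT after PEG was the 1 high library of the 4. MBP1, a myrosinase-binding protein, was at 2.94, 1.01, 9.11 and 0.07 FPKM in these libraries. BG3, a glucanase, was at 0.65 FPKM in OX and 4.91 in WT after PEG, PAD3, of camalexin synthesis, at 0.29 and 1.22, and LURP1, a defence gene, at 9.88 and 21.0. STP1, a sugar importer, was at 27.9 FPKM in OX, 52.9 in atbbd1, 54.8 in WT after PEG and 6.93 in WT at 0 h.

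On the higher side, also chosen after their values were seen, TSPO, an ABA-induced membrane protein, was at 24.8 FPKM in OX, 0 in atbbd1, 5.36 in WT after PEG and 0.06 in WT at 0 h. ALDH7B4, a stress-induced aldehyde dehydrogenase, was at 189 FPKM in OX, 20.2 in atbbd1, 64.4 in WT after PEG and 16.0 in WT at 0 h. AIRP2, a RING ligase of ABA signalling, was at 61.2 FPKM in OX and 22.3 in WT after PEG, PRXCB, an apoplastic peroxidase, at 121 and 42.3, and CYP89A9, of chlorophyll breakdown, at 108 and 38.2. LBD1 was at 24.7 FPKM in OX, 0 in atbbd1, 6.68 in WT after PEG and 0.53 in WT at 0 h. The LEA gene AT3G17520 was at 5.63 FPKM in OX and 0.50 in WT after PEG, and at 0 in the other libraries. KCS3, named for fatty acid elongation, was at 43.5 FPKM in OX and 14.9 in WT after PEG.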
